A study of Mus musculus with 24 samples.

Results

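The 7 genes of the endothelin system and of the control of vascular tone followed here were measured in brain endothelial cells of mice with and without the circadian clock gene Bmal1: Edn1, Edn3, Ednrb, Ece1, Nos3, Ace and Ptgs1. They were taken by gene symbol, 7 of 53465 genes listed, and all 7 were among the 15493 genes that passed the filter on low counts (5 or more reads in at least 6 libraries of either genotype). The set was chosen by the difference in level between the genotypes, with Edn3 in it because it was lower in mutants over all genes. Its levels by genotype are therefore given as a description, and tests are reported for the time of day, for the order of the levels and for the relation to markers of other cells.

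Endothelins are short peptides that act on vascular smooth muscle and on the endothelium itself. A precursor is cut by endothelin-converting enzyme, encoded by Ece1, and the peptide binds the receptors encoded by Ednra, which constricts vessels from the smooth muscle side, and Ednrb, which on endothelial cells is known for nitric oxide release and for clearing the peptide. Nos3 encodes the endothelial nitric oxide synthase, Ace the angiotensin-converting enzyme, which makes angiotensin II and degrades bradykinin, and Ptgs1 the constitutive cyclooxygenase that feeds the synthesis of prostacyclin and thromboxane.

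The paper lists C57BL/6J mice as purchased, and the Bmal1fl/fl and Tie2cre lines under B6 strain names. Controls were Bmal1fl/fl and mutants were Bmal1fl/fl; Tie2-cre, so that the floxed Bmal1 allele was shared by all 24 mice and the Cre transgene, driven by the Tie2 (Tek) promoter, was carried by the mutants alone. That promoter is active in endothelial cells and is known to have been active in blood-forming lineages as well. Brains were taken at zeitgeber time (ZT, hours after lights on) 2, 6, 10, 14, 18 and 22 under 12 h of light and 12 h of dark, from 2 mice of each genotype at each time, and cells bearing CD31, an endothelial surface protein also found on some blood cells, were sorted after removal of CD90+ cells to give 1 RNA-seq library per mouse. Male and female mice were used, and age was not given in the sources used here.

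The deposited totals lay between 6136404 and 6648311 normalized reads per library. The 10 endothelial markers, Pecam1, Cdh5 and Cldn5 among them, had reads in every library and summed to between 11721 and 20029 CPM (reads scaled to library size). Arntl, which encodes BMAL1, was read at 1 to 468 in controls and at 81 to 354 in mutants. Counts over the whole gene include exons outside the deleted one, so Arntl does not check the labels, whereas Nr1d1, a direct target of BMAL1, differed by −2.26 ± 0.34 on the log2 scale (SE; adjusted p = 0.000659, edgeR quasi-likelihood test with Benjamini-Hochberg adjustment). The 8 libraries of ZT6 and ZT18 carried consecutive library numbers and differed from the rest in the markers of several cells. The 9 microglial markers were lower and summed to 187 to 307 CPM against 1667 to 4502 in the other 16 libraries, and the 8 astrocyte markers were lower, at 721 to 1252 against 1637 to 3300. The 6 oligodendrocyte markers, at 347 to 718 CPM against 837 to 3034, and the 7 neuronal markers, at 7.32 to 16.6 against 22.5 to 119, were lower too. The 10 mural markers went the other way, at 2417 to 4026 against 1586 to 3055, and so did the 10 endothelial markers, at 17790 to 20029 against 11721 to 17047. Mitochondrial genes took 2.68 to 3.90% of the reads in these 8 libraries and 5.78 to 17.4% in the others, and the part of this in the contrasts of ZT6 and ZT18 was not tested. These 2 times of day and that run of library numbers cannot be told apart, and the differences between genotypes, the order of the levels and the tests of time points are also given without these libraries.

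The windows around the transcription start sites were read for the short elements through which clock proteins act on their targets, because the mutants lack a clock protein. RefSeq promoters (build GRCm38.p6, 250 bases before to 50 after a start site) were at hand for 6 of the 7 genes, in 10 windows of 300 bases, and none for Nos3. On both strands, the E-box CACGTG, the site of BMAL1 with its partner CLOCK, occurred in 1 of the 10 windows, the variant CACGTT in 1, and the D-box TTATGNAA in 0; of all 32851 promoter windows of this length, 7.15%, 4.68% and 3.38% held them. The stretch before the start site of Edn3, which was chosen for its lower level in mutants, held none of these letters. It is shown with the 2 matches, on the plus strand and in capitals:
Edn3, chr2:174760369-174760618: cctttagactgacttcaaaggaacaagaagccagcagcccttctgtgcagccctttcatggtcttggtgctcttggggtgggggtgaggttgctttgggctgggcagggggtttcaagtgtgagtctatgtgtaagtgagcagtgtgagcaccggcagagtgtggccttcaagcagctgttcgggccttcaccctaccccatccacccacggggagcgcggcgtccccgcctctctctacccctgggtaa
Ece1, before an internal start site, chr4:137913308-137913557: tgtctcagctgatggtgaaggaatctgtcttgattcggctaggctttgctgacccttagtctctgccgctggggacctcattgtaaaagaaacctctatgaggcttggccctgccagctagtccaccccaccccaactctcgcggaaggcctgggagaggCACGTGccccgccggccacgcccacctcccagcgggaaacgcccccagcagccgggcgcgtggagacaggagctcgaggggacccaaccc
Edn1, chr13:42301485-42301514: tatctctggctgCACGTTgcctgtgggtga
The match in Ece1 began 90 bases before that start site, at base 161 of the window counted from its 5′ end, and the match in Edn1 lay 22 bases into the transcript. A match is a description of the letters and not a bound site, and the absence of these letters holds for these windows only.

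Per kilobase of exon, Ece1 was the most abundant of the 7, and Ptgs1 and Ednrb were the least, in an order that turned with the set of libraries. In the 12 control libraries the mean level in scaled reads per kb was 867 ± 142 (SD) for Ece1, 549 ± 98.6 for Nos3, 281 ± 63.1 for Edn1, 203 ± 112 for Ace, 131 ± 27.9 for Edn3, 73.5 ± 32.3 for Ptgs1 and 59.7 ± 17.3 for Ednrb. The converting enzyme thus stood above both endothelins of the set, and Edn1 stood above Edn3. Of the 6 neighbouring pairs in this order, 5 differed within libraries (exact sign permutation test, two-sided, adjusted p = 0.00146 to 0.0164), whereas Ptgs1 and Ednrb did not over all 12 libraries (log2 ratio 0.22 ± 0.94, SD; exact permutation adjusted p = 0.422).

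That pair reversed between the sets. In the 8 controls outside ZT6 and ZT18, Ptgs1 was at 51.2 to 126 and Ednrb at 38.2 to 57.2 scaled reads per kb, with Ptgs1 higher in 8 of 8 libraries (exact permutation adjusted p = 0.0156). In the 4 controls of ZT6 and ZT18, Ptgs1 was at 35.2 to 47.6 and Ednrb at 71.2 to 99.0, with Ednrb higher in 4 of 4, where an exact test cannot go below 0.125. Without ZT6 and ZT18 the order was the same as over all controls, and 4 of 6 neighbouring pairs differed.

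The mutant libraries gave the same order over all 12, from Ece1 at 886 ± 129 (SD) to Ednrb at 50.8 ± 7.67 scaled reads per kb. There the neighbours that did not differ were Edn3, at 92.3 ± 18.8, and Ptgs1, at 90.1 ± 40.6 (log2 ratio 0.19 ± 0.92, SD; exact permutation adjusted p = 0.527). By set, Ptgs1 was at 113 ± 26.3 and Edn3 at 88.8 ± 16.9 outside ZT6 and ZT18, with Ptgs1 higher in 6 of 8 libraries (exact permutation adjusted p = 0.0859). In the 4 libraries of ZT6 and ZT18 Ptgs1 was at 44.4 ± 15.2, below Edn3 at 99.3 ± 23.1 and below Ednrb at 52.7 ± 3.49.

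**Figure D1:**
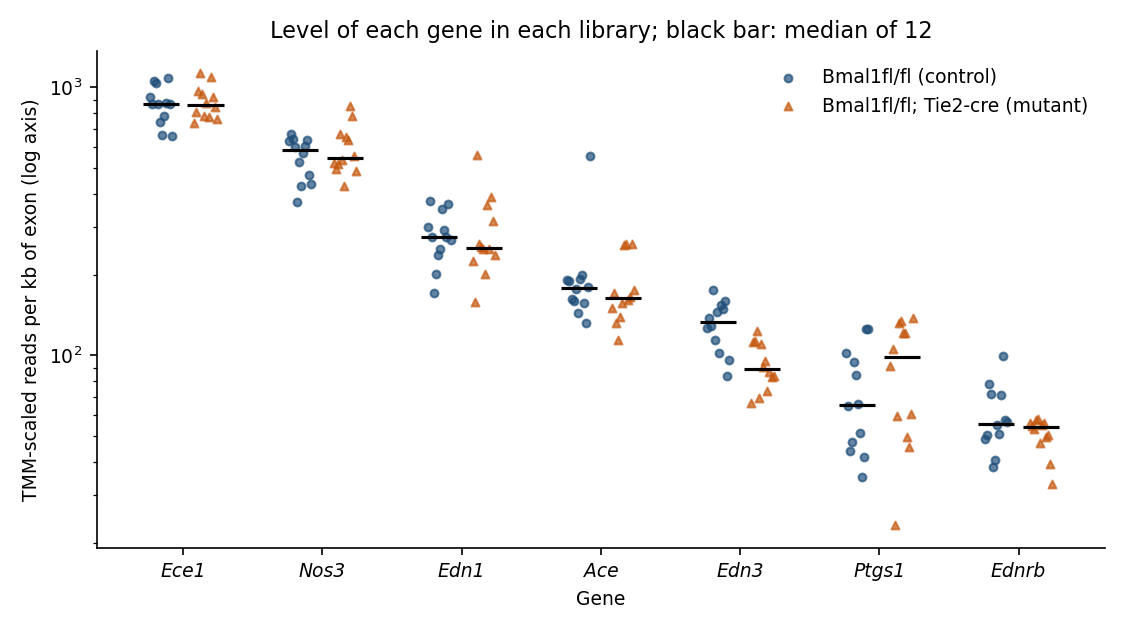
Scaled reads per kb of exon (log axis) of each gene in each library, in the order of the control means, with circles for controls, triangles for mutants and a black bar for the median of 12 libraries. The points fall from Ece1, at 656 to 1080 in controls, to Ednrb, at 38.2 to 99.0, and the controls and mutants of each gene overlap.

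Edn3, the endothelin best known from the development of neural crest cells, was the ligand with the lower level in mutants. At chr2:174760619-174784042 (GRCm38, plus strand), it had 346, 565 and 733 reads in the lowest, median and highest of 12 controls and 272, 366 and 514 in the 12 mutants. The ranges overlapped, with 8 of 12 controls above every mutant and 3 of 12 mutants below every control. At ZT2 the controls had 545 and 585 reads and the mutants 272 and 472. At ZT6 they had 533 and 733 against 450 and 514. At ZT10 they had 475 and 597 against 282 and 458. Both mutants were thus below both controls at each of these times.

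At ZT14, controls had 385 and 597 reads of Edn3 and mutants 378 and 386. At ZT18 the values were 607 and 670 against 296 and 353, the widest gap of the 6 times. At ZT22 they were 346 and 400 against 349 and 349, where the mutants fell within the range of the controls. Both mutants lay below both controls at 4 of 6 time points, as at 4 or more for 1.21% of all genes, and the mean was lower in mutants at 6 of 6, as it was for 2.01% of all genes tested.

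The level of Edn3 in mutants was 0.709 times that in controls, or −0.50 ± 0.11 on the log2 scale (SE). Over all 15493 genes, 42 passed an adjusted p of 0.05 by the edgeR quasi-likelihood test (0.271%), 24 higher and 18 lower in mutants (0.116%). Edn3 stood just inside the threshold, at the adjusted p of 0.0350 that chose it, and Ptgs1 was the nearest of the others outside, at 0.775. The adjusted p (edgeR) was over 0.05 without the ZT6 and ZT18 libraries (0.554, at log2 −0.42 ± 0.14, SE; 0.181% of genes called), in those libraries alone (0.222; 0.0194% called), with the second index of the library barcode in the model (0.33; 0.0452% called), and with the markers of 6 other cell types in it (0.328; 0.0775% called). It was also over 0.05 with no time point in the model (0.211) and with no further scaling (0.0606). The second index of the library barcode was 1 in the ZT6 and ZT18 libraries and in the controls of ZT2 and ZT10. In all other libraries it was 2, so that index and genotype cannot be told apart at ZT2 and ZT10. Leaving out 1 library gave adjusted p values from 0.0203 to 0.104, under 0.05 for 10 of 24; it was over 0.05 without control mouse 1 or 2 of ZT2, 2 of ZT6, 2 of ZT10, 2 of ZT14, or 1 or 2 of ZT18, and without mutant mouse 1 of ZT2, 2 of ZT6, 1 of ZT10, 1 or 2 of ZT14, or 1 or 2 of ZT18.

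**Figure D2:**
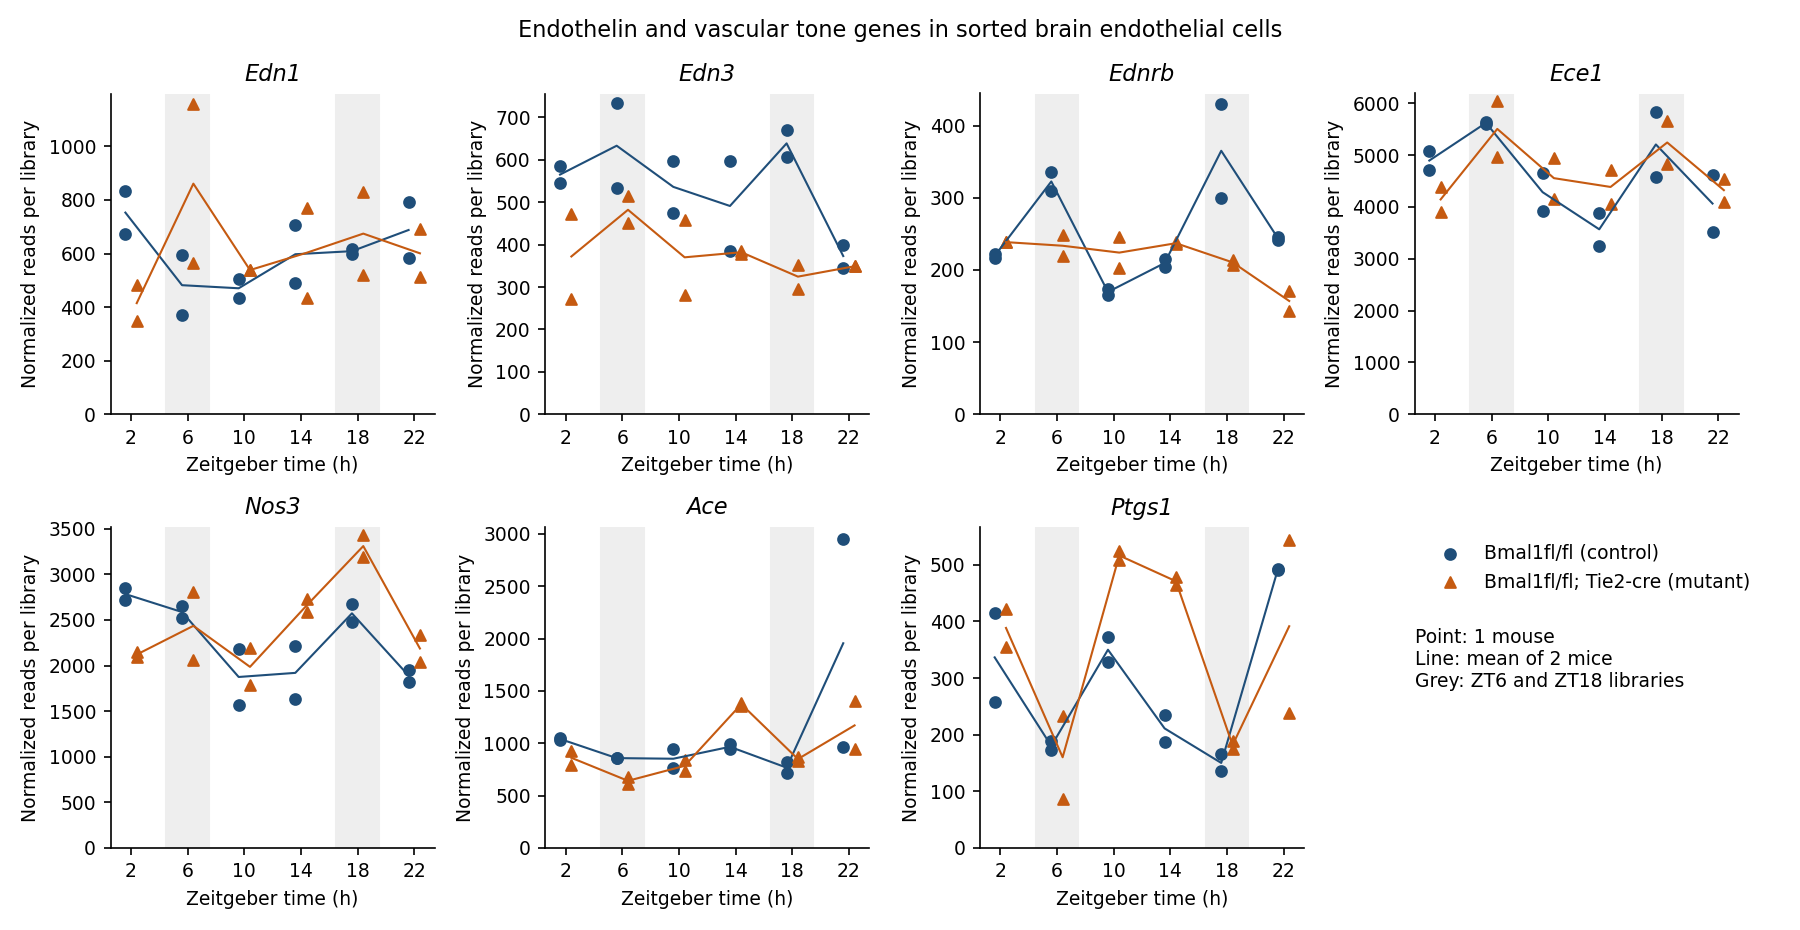
Normalized reads per library of each gene against zeitgeber time in hours, with circles for controls, triangles for mutants, lines through the means of 2 mice and grey bands over the ZT6 and ZT18 libraries. The mutant line of Edn3 lies below the control line at 6 of 6 time points, Ptgs1 falls in the grey bands in both genotypes, Ednrb rises there in controls, and 1 control library of ZT22 reads 2949 for Ace.

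Edn1, the main endothelin of endothelial cells and the stronger constrictor, showed no such offset. Its gene lies at chr13:42301476-42307990 on the plus strand. It had 371, 597 and 832 reads in the lowest, median and highest control and 348, 539 and 1157 in mutants. The range of the controls lay within that of the mutants, which reached higher, and the log2 fold change was 0.02 ± 0.15 (SE). It was 0.17 with the markers of 6 other cell types in the model and 0.19 with the second index of the library barcode.

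The 2 sets of libraries gave opposite values for Edn1. In the ZT6 and ZT18 libraries alone the log2 difference between mutants and controls was 0.52 ± 0.21 (SE), and in the other 16 it was −0.23 ± 0.15. At ZT2 both controls, at 674 and 832 reads, were above both mutants, at 482 and 348, whereas at ZT6 the mutants had 1157 and 565 and the controls 593 and 371. These are values of the contrast that chose the set and carry no test.

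Ednrb, the receptor on endothelial cells and also a receptor of astrocytes, lay below controls in mutants at some time points and above them at others, an order that did not pass the test of genotype by time point (adjusted p = 0.834, edgeR). Before adjustment its p was under 0.05, as for 5.22% of genes. Its gene lies at chr14:103814625-103844402 on the minus strand. Over all libraries it had 165, 232 and 430 reads in the lowest, median and highest control and 143, 228 and 248 in mutants, and 4 of 12 controls were above every mutant. Those 4 were the ZT6 controls, at 335 and 310 reads, and the ZT18 controls, at 300 and 430. The mutants of the same times had 219, 248, 207 and 214. Every mutant was below every control in this set of libraries, as for 1.9% of all genes, and the log2 difference was −0.60 ± 0.19 (SE) there.

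Outside that set, the order of the genotypes for Ednrb went both ways. At ZT22 both mutants, at 171 and 143 reads, were below both controls, at 246 and 242. At ZT2 the mutants, at 239 and 238, were above the controls, at 217 and 222, and at ZT10 they had 245 and 203 against 165 and 174. At ZT14 they had 238 and 236 against 215 and 204. With 2 mice of each genotype at a time, the pairs stood apart in both directions, at 1 or more time points each, for 39.5% of all genes, and at 6 of 6 time points in either direction, as here, for 0.181%, a description from the contrast that chose the set. The log2 difference of Ednrb was 0.00 ± 0.15 (SE) in these 16 libraries and −0.20 ± 0.12 over all 24. It was −0.44 with the second index of the library barcode in the model, and these values carry no test.

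Ece1, the enzyme that activates both ligands, was nearly level between genotypes. Its gene lies at chr4:137862237-137965229 on the plus strand. It had 3251, 4636 and 5830 reads in the lowest, median and highest control and 3900, 4632 and 6048 in mutants, and the log2 fold change was 0.03 ± 0.07 (SE), and 0.08 with the second index of the library barcode in the model. Its spread was the smallest of the 7, at 16.4% of the mean in controls and 14.5% in mutants.

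Nos3, at chr5:24364810-24384474 on the plus strand, had 1569, 2343 and 2846 reads in the lowest, median and highest control and 1782, 2264 and 3427 in mutants. The ranges overlapped and the log2 fold change was 0.11 ± 0.08 (SE), and 0.22 with the second index of the library barcode in the model. By time point the genotypes crossed, as the 39.5% of genes above did. At ZT2 both controls, at 2722 and 2846 reads, were above both mutants, at 2149 and 2092. At ZT18 both mutants, at 3427 and 3194, were above both controls, at 2475 and 2670, and the same held at ZT14, at 2727 and 2591 against 1629 and 2210, and at ZT22, at 2339 and 2035 against 1955 and 1824. Both mutants were above both controls at 3 or more time points for 7.81% of all genes.

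Ace, at chr11:105967945-105989964 on the plus strand, had 712, 942 and 2949 reads in the lowest, median and highest control and 608, 852 and 1399 in mutants. A single control mouse of ZT22 held the 2949 reads, and the next control had 1053. The log2 fold change was −0.15 ± 0.13 (SE), and it was 0.00 without that library and −0.09 with the markers of 6 other cell types in the model.

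The same library stood apart in the genes most like Ace. Ttr, the carrier of thyroxine and retinol that is abundant in the choroid plexus, had 62799 reads there and at most 17932 in the other 23 libraries. Enpp2, which makes lysophosphatidic acid, had 63432 against at most 17956. The Pearson r of Ace with Ttr over libraries was 0.86 with that library (n = 24) and 0.80 without it (n = 23). Ttr was taken as the gene most like Ace of 12254 over these same libraries, so both values are a description. The part of cells that carry Ttr in the level of Ace was not tested.

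Ptgs1, at chr2:36230426-36252272 on the plus strand, had 135, 247 and 493 reads in the lowest, median and highest control and 87, 389 and 544 in mutants. The log2 fold change was 0.28 ± 0.15 (SE). With the markers of 6 other cell types in the model it was 0.08. At ZT14 both mutants, at 478 and 464 reads, were above both controls, at 235 and 187, and at ZT10 the mutants had 509 and 524 against 372 and 328. They were also above at ZT18, at 188 and 175 against 135 and 165, whereas the genotypes overlapped at ZT2, ZT6 and ZT22. Both mutants were thus above both controls at 3 time points, as at 3 or more for 7.81% of all genes.

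**Figure D3:**
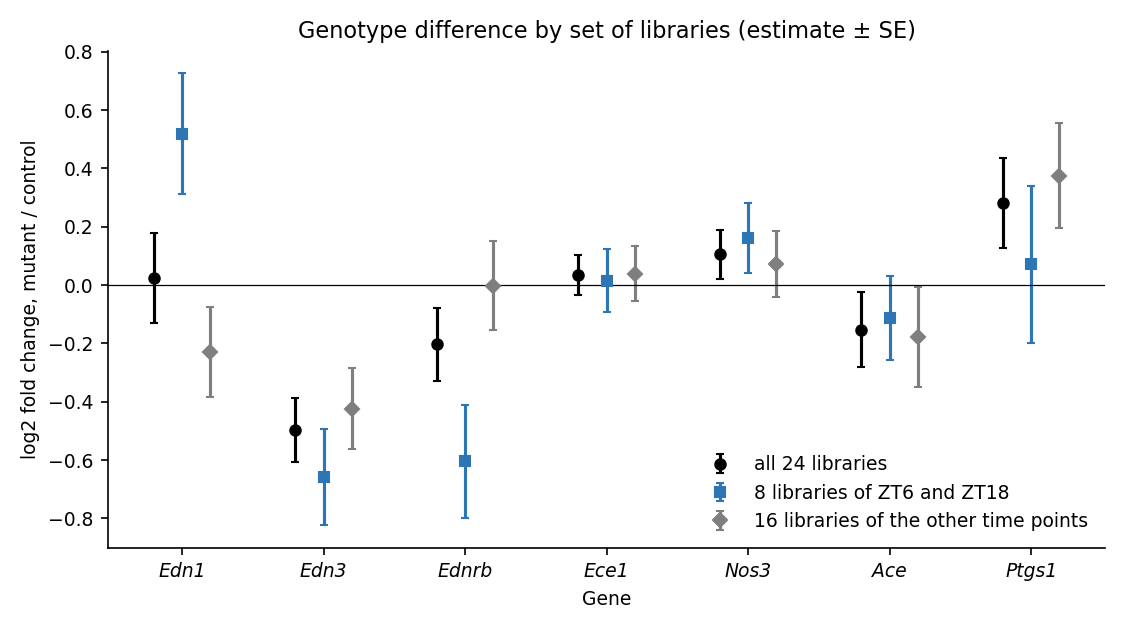
The log2 fold change of mutants over controls with its SE for each gene, from all 24 libraries (black circles), from the 8 libraries of ZT6 and ZT18 (blue squares) and from the other 16 (grey diamonds). Edn3 lies below 0 in each set, at −0.50, −0.66 and −0.42, whereas Edn1 changes sign between the sets, at 0.52 and −0.23, and Ednrb lies at −0.60 and 0.00.

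To determine whether the 7 genes cycled over the day, the 12 libraries of each genotype were tested for a 24-h rhythm by meta2d (JTK_CYCLE and Lomb-Scargle, combined). None of the 7 passed a q of 0.6, the threshold of the study, in controls (background 0.31% of genes) or in mutants (0.0387%), and none had an unadjusted p under 0.05, which 2.43% and 2.27% of genes had. The lowest p was 0.530 in controls, for Edn1, and 0.383 in mutants, for Ace. The edgeR test of a 24-h cosine called 0 of the 7 in either genotype and gave 1 unadjusted p under 0.05, for Ace in mutants, where 4.16% of genes had one (4.43% in controls). For Edn3, the meta2d p was 1.00 in controls and 0.898 in mutants, so that no rhythm was detected in either genotype with 2 mice at each time.

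Some of the genes differed between time points without a 24-h wave being called. With time point as a factor, the edgeR test called Ptgs1 (adjusted p = 0.00355) and Ace (0.0491) in controls, where 5.85% of genes were called, and Ptgs1 (0.0238), Ace (0.0104) and Nos3 (0.0444) in mutants, where 5.65% were. In Ptgs1 the means of controls went from 150 reads at ZT18 to 492 at ZT22, and those of mutants from 160 at ZT6 to 517 at ZT10. Nos3 in mutants ranged from a mean of 1986 at ZT10 to 3311 at ZT18. Ace in mutants ranged from 641 at ZT6 to 1373 at ZT14. In controls Ace ranged from a mean of 767 at ZT18 to 1955 at ZT22, where 1 mouse had 2949 reads, the library in which Ttr also stood apart, and the other 961. Without that library the control call of Ace was lost (adjusted p = 0.634, edgeR, with the lone ZT22 mouse taken to vary like the others) and that of Ptgs1 was not (0.0116). Without the ZT6 and ZT18 libraries 0 of the 7 were called in either genotype (adjusted p = 0.244 to 0.998, edgeR), where 0.445% of genes were called in controls and 0.258% in mutants from 8 libraries each. Unadjusted p values were then under 0.05 for Ace in both genotypes and for Ptgs1 in controls. The share of all genes with such an unadjusted p is not given here, so these values have no background beside them. For Nos3 in mutants the adjusted p was 0.726 and for Ptgs1 in mutants it was 0.905.

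No difference in rhythm between the genotypes was detected for any of the 7. Over all genes the test of genotype by cosine and sine (2 degrees of freedom, edgeR quasi-likelihood) called 0 of 15493 after adjustment, with 660 at an unadjusted p under 0.05 (4.26%) and 1 called by DESeq2. Of the 7 genes, 0 had an unadjusted p under 0.05; Nos3 was lowest (0.0888), then Ednrb (0.168) and Ace (0.195). With time point as a factor in place of the wave, Ednrb and Edn1 were under 0.05 before adjustment, as were 5.22% of genes, and not after (adjusted p = 0.834 and 0.947, edgeR; 0.0129% of genes called).

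The ZT6 and ZT18 libraries were then compared with the others, a contrast added after the data were seen. Ptgs1 was lower in them in both genotypes. Controls had 135 to 188 reads in these 4 libraries and 187 to 493 in the other 8, and mutants 87 to 233 against 239 to 544. In scaled reads the sets did not overlap, as for 4.29% of genes in controls and 5.14% in mutants. The level was 0.472 times that of the other times in controls (log2 −1.08 ± 0.23, SE; adjusted p = 0.00451, edgeR) and 0.395 times in mutants (log2 −1.34 ± 0.23; adjusted p = 0.000365). Of the 7 genes, 2 were called in controls, where 6.87% of all genes were, and 2 in mutants, where 9.91% were, more of them lower (5.52% and 7.31%) than higher (1.35% and 2.59%).

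Ednrb went the other way, in controls. The 4 ZT6 and ZT18 controls had 300, 310, 335 and 430 reads and the other 8 between 165 and 246, so that the sets did not overlap, as for 1.48% of genes. The level was 1.61 times that of the other times (log2 0.69 ± 0.17, SE; adjusted p = 0.0126, edgeR), and the call was lost without control mouse 2 of ZT18 (log2 0.57; adjusted p = 0.0967). The endothelial and mural markers were higher and the oligodendrocyte, neuronal, astrocyte and microglial markers lower in the ZT6 and ZT18 libraries. Their part in the level of Ednrb was not tested. In mutants the same libraries had 207 to 248 reads against 143 to 245, at log2 0.09 ± 0.18 (adjusted p = 0.86, edgeR), and overlapped them, whereas 1.51% of genes had every such library above the rest. The difference between genotypes in this contrast was −0.60 ± 0.24 on the log2 scale (SE; adjusted p = 1.00, edgeR). Before adjustment it was under 0.05, as it was for 678 of 15493 genes (4.38%), and 0 passed after adjustment.

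Edn1 had the opposite difference between genotypes in the contrast, 0.75 ± 0.30 (SE; adjusted p = 1.00, edgeR; under 0.05 before adjustment). Its log2 change in the ZT6 and ZT18 libraries was −0.21 ± 0.18 in controls and 0.55 ± 0.20 in mutants, and neither passed (adjusted p = 0.643 and 0.0995). Ece1 was higher in mutants in these libraries (log2 0.34 ± 0.11, SE; adjusted p = 0.0423) and had a like value in controls that did not pass (0.35 ± 0.12; adjusted p = 0.0933). The endothelial markers were higher in the same libraries, with a median sum of 18684 CPM against 14477, and their part in the level of Ece1 was not tested. The Ece1 call was lost without any one of 8 of the 12 mutant libraries, both mice of ZT2 and ZT22 and mouse 2 of ZT6, ZT10 and ZT14 and mouse 1 of ZT18 (adjusted p up to 0.149). Nos3, Ace and Edn3 did not pass in either genotype (adjusted p = 0.068 to 0.667). In mutants Nos3 passed without mouse 1 or 2 of ZT14 or mouse 1 of ZT6 (adjusted p down to 0.015, edgeR), and Edn1 passed without mouse 2 of ZT14 (0.0383). The values of Edn1 rested on single libraries of ZT6. Without mutant mouse 1 of ZT6, which had 1157 reads, the change in mutants was 0.27 (adjusted p = 0.526) and the difference between genotypes 0.42. Without control mouse 2 of ZT6, which had 371, the change in controls was −0.06 and the difference 0.56.

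**Figure D4:**
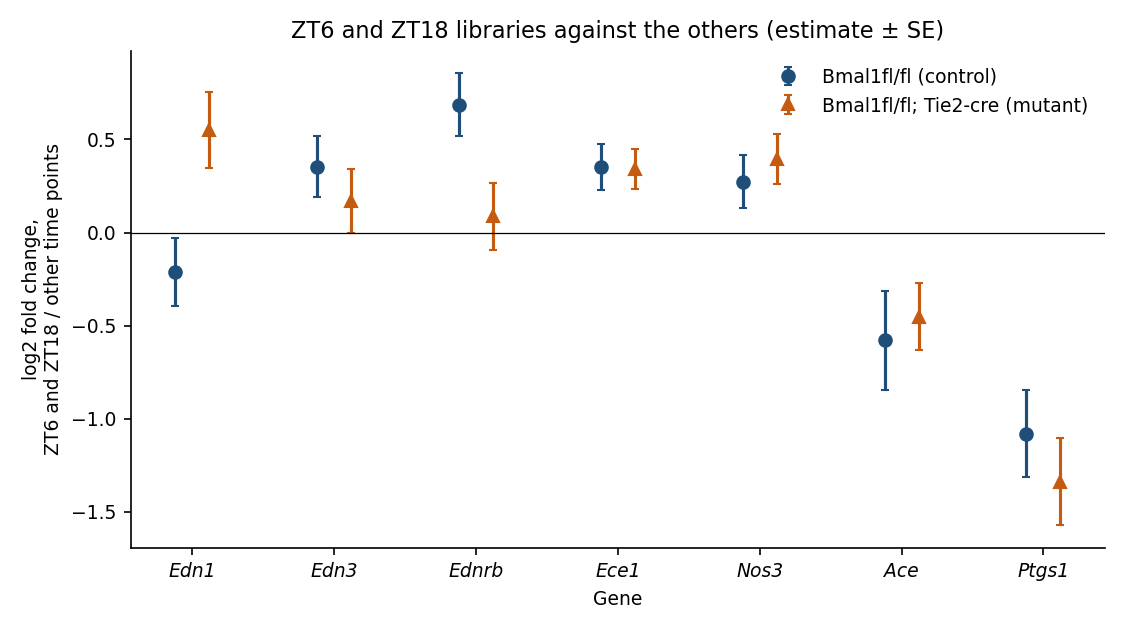
The log2 fold change of the ZT6 and ZT18 libraries over those of the other time points with its SE, for each gene in controls (circles) and mutants (triangles). Ptgs1 is lower in both genotypes, at −1.08 and −1.34, Ednrb is higher in controls at 0.69 and at 0.09 in mutants, and Edn1 lies on opposite sides of 0, at −0.21 and 0.55.

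Because microglia are known to express Ptgs1 and astrocytes Ednrb, the level of each was set beside the markers of those cells. In bulk samples, fewer cells of a type and less RNA per cell cannot be told apart. Marker levels fell into the 2 separate sets of libraries, so the relation was computed within each. In the 16 libraries of ZT2, ZT10, ZT14 and ZT22, Ptgs1 rose with the summed microglial markers (Pearson r = 0.80, permutation p = 0.00045; Spearman rho = 0.81, p = 0.00023; adjusted p over both relations 0.0009), and r was 0.72 without the 2 libraries farthest from the median marker level (permutation p = 0.00292). In the 8 libraries of ZT6 and ZT18 it did not (r = −0.16, exact permutation p = 0.704; rho = −0.24, exact p = 0.582).

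Ednrb showed no relation to the summed astrocyte markers in either set. In the 16 libraries r was 0.17 (permutation p = 0.543) and rho 0.06 (p = 0.829), and in the 8 libraries r was −0.15 (exact permutation p = 0.741) and rho 0.05 (exact p = 0.935). The 4 controls with the highest Ednrb were in the set where astrocyte markers were lower, and so were the 4 mutants with 207 to 248 reads. The points within a set share time points and genotypes.

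**Figure D5:**
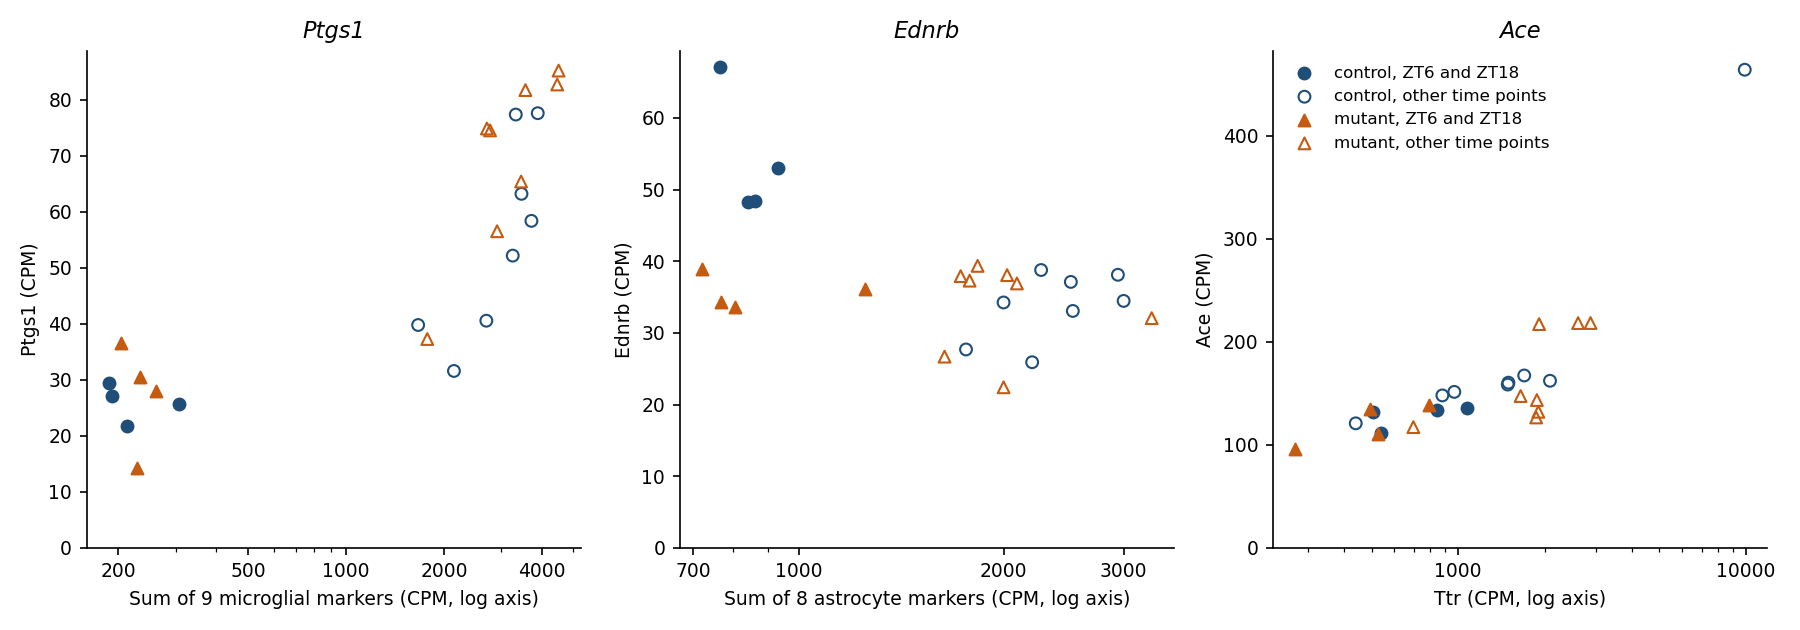
CPM of Ptgs1 against the sum of 9 microglial markers, of Ednrb against the sum of 8 astrocyte markers and of Ace against Ttr, with a log x axis and 1 point per library; circles are controls, triangles mutants, filled symbols ZT6 and ZT18 and open symbols the other time points. Ptgs1 climbs with the microglial markers among the open symbols (r = 0.80), the 4 filled circles lie above every other point for Ednrb, and 1 open circle stands far from the rest for Ace.

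The genes whose levels ran most like those of each member were looked up among 12254 genes with a mean of 20 or more reads, by Pearson r over the 24 libraries. They are named as a description, without a test. Nos3 ran with Tie1, an endothelial receptor tyrosine kinase (0.89), Ephb4, a receptor of venous endothelium (0.89), and Tinagl1 (0.87). Ece1 ran with Podxl, a sialomucin of the endothelial surface (0.90), Ifitm2 (0.86) and Dysf (0.84). The points share libraries, times of day and the mix of cells, and these values do not separate them.

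For Ptgs1 they were Arsb, a lysosomal sulfatase (0.94), Ubash3b (0.94) and Inpp5d, the SHIP1 phosphatase of blood and microglial cells (0.93). For Ace they were Ttr (0.86), Enpp2 (0.86) and Igfbp2 (0.86). For Ednrb they were Tnfsf12 (0.77), Elovl7 (0.69) and Foxq1, a transcription factor of brain endothelium (0.65), and for Edn1 they were Mocos (0.74), Map3k4 (0.70) and Xrcc1 (0.65). These sets do not overlap.

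Edn3 ran with Nr1d2, which encodes the clock repressor REV-ERBβ (0.73), Ly75 (0.73) and Nomo1 (0.71). Within 1 genotype the r of Edn3 with Nr1d2 was 0.49 in controls and 0.58 in mutants (12 libraries each). Nr1d2 itself differed between the genotypes by −1.90 ± 0.21 on the log2 scale (SE; adjusted p = 8.57e-06, edgeR), so that the shared difference in level enters the value over 24 libraries. Among the 7 genes, Nos3 and Ece1 were the most alike (r = 0.62), and Edn3 with Edn1 was at −0.02.

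Of the other genes of these pathways, 73 in 5 lists, 57 passed the filter on low counts. None of the 57 differed between genotypes after adjustment (edgeR; 0 by DESeq2 also), and 3 of the 57 had an unadjusted p under 0.05, as did 6.95% of all genes: Aplnr, the apelin receptor, at log2 0.71 ± 0.26 (SE), Nostrin, which traffics the nitric oxide synthase, at −0.20 ± 0.09, and Npr1, a natriuretic peptide receptor, at 0.22 ± 0.11. Their median log2 fold change was −0.04, beside 0.00 over all genes tested. None passed the q of 0.6 for a rhythm in either genotype, nor the edgeR test of a cosine. An unadjusted meta2d p under 0.05 was given by Ptger1, Ptgfr and Trpv4 in controls and by Kcnj2 in mutants, named because they had it, beside 2.43% of all genes in controls and 2.27% in mutants. For a difference in rhythm, 0 passed by edgeR or DESeq2 and Trpv4 alone had an unadjusted p under 0.05 (0.0454), beside 4.26% of all genes.

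In the endothelin list, Edn2, the third ligand, had 0 reads in all 24 libraries, and a count of 0 allows up to 3 reads in a library. Ece2 had 2 reads in 1 library. Ednra, the smooth muscle receptor, had 51, 121 and 156 reads in the lowest, median and highest control and 48, 117 and 167 in mutants, or 20.02 scaled reads per kb over all libraries against 55.3 for Ednrb. Mme, which encodes the peptidase neprilysin, ranged from 0 to 58 reads in controls and from 0 to 50 in mutants. The genotypes overlapped in both.

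In the nitric oxide list, 18 of 21 other genes passed the filter. Cav1, the caveolar protein that holds the synthase inactive, had a median of 988 reads in controls and 1127 in mutants (log2 0.08 ± 0.09, SE). Gch1, the first enzyme of cofactor synthesis, was at −0.11 ± 0.12, and Ddah1 and Ddah2, which clear an inhibitor of the synthase, at −0.22 ± 0.11 and −0.10 ± 0.18. The other synthases were read far below Nos3 per length: Nos2 at 38.6 and Nos1 at 18.3 scaled reads per kb against 571. In the ZT6 and ZT18 libraries Cav1 was higher in both genotypes (log2 0.75, adjusted p = 0.00086 in controls; 0.41, adjusted p = 0.0493 in mutants, edgeR). In mutants Gch1 (0.63, adjusted p = 0.0214) and Gucy1b1, a subunit of the nitric oxide receptor (0.65, adjusted p = 0.0319), were higher there and Qdpr, which recycles the cofactor, was lower (−0.60, adjusted p = 0.0354). In controls Gch1 was at 0.32, Gucy1b1 at 0.45 and Qdpr at −0.59, and none passed (adjusted p = 0.16 to 0.504). The endothelial and mural markers were higher and the oligodendrocyte, neuronal, astrocyte and microglial markers lower there, and their part in these values was not tested.

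In the angiotensin and kinin list, 6 of 13 other genes passed. Enpep, a peptidase of pericytes, had medians of 217 and 241 reads in controls and mutants (log2 0.14 ± 0.14, SE), Atp6ap2, the prorenin receptor, 170 and 162 (−0.28 ± 0.15), and Agt, the angiotensin precursor known from astrocytes, 58.5 and 45.5 (−0.44 ± 0.30). The receptors were near or at the limit: Agtr1a had 0 reads in every library, Agtr2 at most 9 and Bdkrb2, the bradykinin receptor, at most 57. Atp6ap2 was lower in the ZT6 and ZT18 libraries in controls (log2 −0.88, adjusted p = 0.0495, edgeR) and mutants (−0.76, adjusted p = 0.0348). In mutants Agt was lower there (−1.54, adjusted p = 0.0394) and Enpep higher (0.82, adjusted p = 0.00698), with values of −1.16 (adjusted p = 0.109) and 0.34 (0.43) in controls. The mural markers were higher and the astrocyte, microglial, oligodendrocyte and neuronal markers lower in the same libraries, and their part in these values was not tested.

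In the prostanoid list, 16 of 19 other genes passed. Ptgs2, the inducible cyclooxygenase, had medians of 165 and 239 reads in controls and mutants (log2 0.30 ± 0.26, SE), Ptgis, the prostacyclin synthase, 58.5 and 50.5 (−0.33 ± 0.34), Ptges 94.0 and 54.0 (−0.45 ± 0.25), Pla2g4a, which frees arachidonic acid, 331 and 269 (−0.19 ± 0.16) and Slco2a1, the prostaglandin transporter, 128 and 108 (0.00 ± 0.22). Tbxas1, the thromboxane synthase known from microglia and platelets, was at 0.59 ± 0.31 and Ptgds at −0.28 ± 0.24. None passed.

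Like Ptgs1, 4 other genes of the prostanoid list were lower in the ZT6 and ZT18 libraries of both genotypes: Tbxas1 (log2 −4.09 in controls and −3.92 in mutants), Ptgds (−2.61 and −1.45), Hpgds (−3.88 and −5.08) and Hpgd (−3.42 and −3.67). Their adjusted p values by edgeR were at most 0.0102. The microglial, astrocyte, oligodendrocyte and neuronal markers were lower in the same libraries, and the endothelial and mural markers higher. Their part in the values of this paragraph was not tested. Slco2a1 was higher there in controls (log2 0.96, adjusted p = 0.0369, edgeR), with 0.04 in mutants (0.969), and Ptges in mutants (1.20, adjusted p = 0.0382), with 0.45 in controls (0.5). The difference between genotypes in this contrast passed for 0 of the genes tested, these included.

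Of the other vasoactive genes, 15 of 16 passed the filter, and Nppc, at most 9 reads, did not. Calcrl, the receptor subunit for adrenomedullin, had medians of 1448 and 1413 reads in controls and mutants (log2 0.01 ± 0.09, SE), Adm, its ligand, 41.0 and 40.0 (−0.03 ± 0.31), Apln 116 and 115 (0.11 ± 0.23) and Npr3, the clearance receptor, 96.0 and 116 (−0.33 ± 0.26). Aplnr, with medians of 132 and 212, had the lowest p of all 57 genes and an adjusted p of 0.497 (edgeR). Calcrl was higher in the ZT6 and ZT18 controls (log2 0.57, adjusted p = 0.0226, edgeR), with 0.36 in mutants (adjusted p = 0.0709), and Ramp1, a partner of that receptor, was lower in mutants (−1.35, adjusted p = 0.0322), with −1.15 in controls (adjusted p = 0.174). The endothelial and mural markers were higher and the oligodendrocyte, neuronal, astrocyte and microglial markers lower in the ZT6 and ZT18 libraries. Their part in the values of Calcrl and Ramp1 was not tested. Over the 5 lists, 3 of 57 genes were higher and 5 lower in these libraries in controls, and 5 higher and 8 lower in mutants, beside 1.35% higher and 5.52% lower over all genes in controls and 2.59% and 7.31% in mutants.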

How the data were processed

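RNA of CD31-sorted cells was sequenced with a strand-specific total RNA kit. The authors aligned reads to GRCm38 with STAR 2.5.3a (SAMtools 1.3.1), counted them on Ensembl genes and normalized them with PORT. The deposited values are whole normalized read counts per gene, so the original depth is not in them and counting error was judged from normalized reads; 0 values were not whole. Groups came from the labels. Each library is from 1 mouse. With time point as a factor within each genotype, p-values measure the spread between mice of the same time. In the other tests, differences between time points that the model does not hold enter that spread too. The contrast of ZT6 and ZT18, the order of the levels and the marker relations pool time points, and the marker relations also pool genotypes. The members and lists were chosen with earlier results of these data known.

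Level differences, their interactions and the contrast of ZT6 and ZT18 were fitted over 15493 genes with edgeR 4.0.16 (TMM, quasi-likelihood; R 4.3.3), with time point as covariate for genotype. DESeq2 1.42.0 was an alternative. For 24-h rhythms, meta2d was rewritten in Python 3.11.15 and tested on simulated data, as was edgeR. Scaled reads are reads divided by the TMM library factor; exon lengths came from GENCODE for GRCm38. CPM were taken with TMM and a pseudocount of 1 for logs. Named genes were the members, a set chosen per list, the 2 of lowest genotype p per list, any list gene called in a test, and the 3 genes most alike to each member; list genes with a rhythm p under 0.05 were named after their values were seen. The values of 1 list gene are not reported here.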

Additional observations from a re-analysis of the deposited data

Results flagged for a closer look

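Within each genotype, the ZT6 and ZT18 libraries and the others were searched for a library far from the rest (Dixon's test at the 95% level), which gave 2 of 28 sets of values; chance gives about 1 in 20. Ace in control mouse 2 of ZT22 had 2949 reads, and the next of the 8 controls outside ZT6 and ZT18 had 1053. Edn1 in control mouse 2 of ZT6 had 371 reads, and the next of the 4 ZT6 and ZT18 controls had 593.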

How the results depend on the processing

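Over 35 alternatives the log2 fold change of Edn3, whose sign chose it, was −0.66 to −0.42, and its adjusted p was under 0.05 in 15. The 42 genes called between genotypes became 99 with DESeq2, 141 with no filter, 12 with 6 marker covariates, 7 with the index read, 3 in the ZT6 and ZT18 libraries alone (added after seeing the data), 0 with no time point, and 25 to 68 with 1 library left out. Genes called rhythmic in controls (48) became 14 by an edgeR cosine, 906 with time as a factor, 964 with it and without control mouse 2 of ZT22 (added after seeing the data), and 0 to 82 with 1 library left out. In mutants the rhythmic genes (6) became 43 with a stricter filter, 24 with TMM rescaling, and 0 to 24 with 1 library left out. By the cosine they became 0, and 30 without ZT6 and ZT18. Time as a factor called 876 genes in mutants, and 40 without ZT6 and ZT18 (added after seeing the data). Differences in rhythm (0) became 1 with DESeq2, 1 with the index read, 52 with no filter, 5 without ZT6 and ZT18 and 0 to 1 with 1 library left out. The test of genotype by time point as a factor, which is not limited to a rhythm, called 2. Neighbouring pairs that differed in level (5 of 6) became 0 in the ZT6 and ZT18 libraries of either genotype, where 4 libraries cannot reach the threshold (added after seeing the data). The cause of the other moves was not tested. Over both sets of libraries, r of Ednrb with astrocyte markers was −0.50, and −0.40 without the 2 farthest libraries; it was −0.15 within ZT6 and ZT18, 0.17 within the others and 0.24 there without the 2 farthest. For Ptgs1 and microglial markers r was 0.86 over all and −0.16 within ZT6 and ZT18.

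Same-numbered mice did not deviate together (correlations −0.01 to 0.03 at 6 time points, 0 of 6 over 0.1). The mouse numbers follow the order of the library numbers. The paper describes independent experiments, and the labels do not say which mouse came from which. These correlations therefore cannot tell whether mice were paired or grouped in another way. With the replicate block, 45 genes were called between genotypes, 4 by the cosine in controls and 0 in mutants, 0 for a difference in rhythm, and 1018 and 1502 for ZT6 and ZT18 in controls and mutants.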
